A study of Mus musculus with 6 samples.

Results

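The regions described here are the SOX13 binding peaks that lie on chromatin marked by H3K4me3 (histone H3 trimethylated at lysine 4) and not by H3K27me3 (trimethylated at lysine 27) in Sox13hi γδ thymocytes. A SOX13 peak on chromosomes 1 to 19 was a member if it overlapped a Sox13hi H3K4me3 peak by at least 1 bp and overlapped no Sox13hi H3K27me3 peak. Of the 13494 SOX13 peaks on these chromosomes, and 13807 in all, 1598 were members, which is 11.8% (95% exact binomial interval 11.3 to 12.4%). This share is set by the rule and nothing is read from it. The other SOX13 peaks on these chromosomes were 11470 on neither mark, 268 on both marks and 158 on H3K27me3 alone.

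Chromatin immunoprecipitation and sequencing (ChIP-seq) was done on thymocytes of C57BL/6 mice that lack TCRβ (TCRbeta KO) and carry the cyan fluorescent reporter ECFP knocked into 1 Sox13 allele (Sox13 ECFP KI/+). Every library came from this genotype, so both populations lack TCRβ and have 1 reporter allele. Cells positive for γδ and CD24 were sorted by the reporter into Sox13hi (CFPhi) and Sox13lo (CFPlo/-), so the populations are defined by reporter level and the second one mixes low and negative cells. SOX13 was mapped in Sox13hi from 1000000 cells, and each histone mark in both populations from 250000 cells. There was 1 library per group. Nothing below has a replicate check, no p-value was computed, and the intervals cover counting error over peaks only. The number of animals, their age and sex are not given in the labels. Peak lists hold no expression values, so cell type markers were not checked.

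SOX13 is a high-mobility-group (HMG) box transcription factor of the SoxD group. HMG boxes bind the minor groove and bend DNA, and SoxD proteins have no known activation domain of their own and act with partner factors. In the thymus SOX13 is known for its part in the development of γδ T cells that make IL-17. H3K4me3 is written by the SET1 and MLL methyltransferase complexes around the start sites of active and poised genes, commonly on the nucleosomes on either side of a nucleosome-poor centre. H3K27me3 is written by Polycomb repressive complex 2 at silenced genes. A SOX13 peak on H3K4me3 without H3K27me3 is therefore on chromatin of the kind found at active promoters, but genes were not assigned here, and peaks are named by position in mm9.

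The members lay on 1557 H3K4me3 peaks, called hosts below. Of these, 44 also held an H3K27me3 peak elsewhere along their length, at a median host width of 1450 bp, and the remaining 1513 did not. Those 1513 hosts are set against the 15547 Sox13hi H3K4me3 peaks with neither SOX13 nor H3K27me3. Across all 17062 H3K4me3 peaks without H3K27me3, 8.88% held SOX13. Because 4 members touched more than 1 host, there were 1602 pairs of a SOX13 peak and a host.

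At the edge of the rule, 27 members overlapped their host by only 50 bp, the spacing of the grid on which the peaks were called. Just outside it, 17 SOX13 peaks abutted an H3K4me3 peak and 19 were 50 bp away. The median SOX13 score percentile was 62.7 for those 27 members and 70.4 for those 36 peaks, where a percentile of 100 is the highest score of the list. On the H3K27me3 side, 17 members were within 50 bp of an H3K27me3 peak and 73 within 1000 bp, and 8 SOX13 peaks on both marks overlapped H3K27me3 by 50 bp.

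Within their hosts, SOX13 peaks were placed towards the middle. The SOX13 midpoint was in the central 50% of the host's length in 1123 of 1602 pairs (70.1%, 67.8 to 72.3%) and in the middle 20% in 511 (31.9%, 29.6 to 34.2%). The outer 40% of the length, 20% at each end, held 266 midpoints (16.6%, 14.8 to 18.5%). The midpoint was outside the host in 109 pairs (6.80%). In distance, the 2 midpoints were a median of 125 bp apart, with an upper quartile of 250 bp, and 93.4% were within 500 bp.

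The SOX13 peak was wholly inside the host in 1061 pairs (66.2%, 63.9 to 68.5%) and crossed 1 edge of it in 393 (24.5%, 22.4 to 26.7%). It enclosed the host in 137 pairs (8.55%) and had the same extent in 11. The 2 peaks shared a median of 300 bp. The SOX13 peak covered a median of 38.5% of the host, with quartiles of 21.7% and 71.4%.

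Central placement was seen in broad hosts, where the size of the SOX13 peak leaves room for other positions. For hosts of more than 2000 bp, 79 of 112 midpoints (70.5%, 61.2 to 78.8%) were in the central 50%. In these hosts the median distance between the 2 midpoints was 425 bp. For hosts over 1200 and up to 2000 bp the central share was 72.0% (67.1 to 76.5%), with a median distance of 250 bp. It was highest at 77.1% (71.7 to 81.9%) over 500 and up to 800 bp. The narrowest hosts, up to 300 bp, had the lowest share, 43.6% (35.7 to 51.8%). There the SOX13 peak covered a median of 83.3% of the host, and 25% of midpoints fell outside it.

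**Figure D1:**
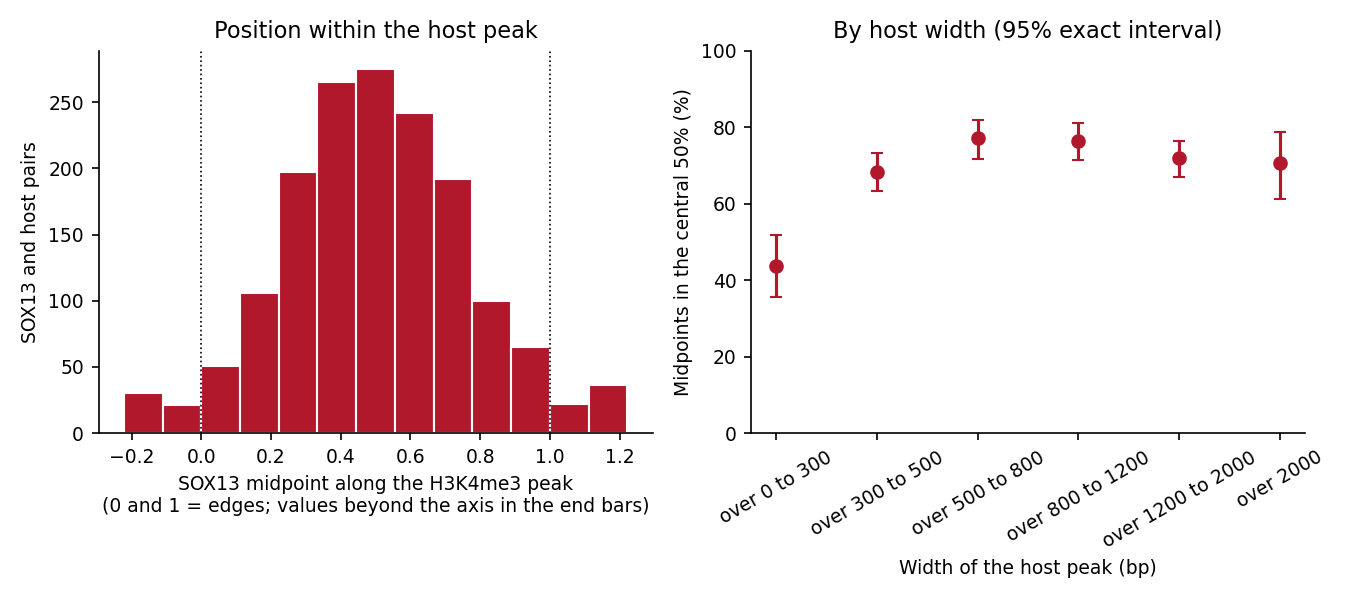
Left, number of SOX13 and host pairs by the place of the SOX13 midpoint along the host H3K4me3 peak, where 0 and 1 are the host's edges and the dotted lines mark them. Right, share of midpoints in the central 50% of the host by host width in bp, with 95% exact binomial intervals. The share is 43.6% in hosts up to 300 bp and between 68.4% and 77.1% in the wider classes.

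Hosts were slightly broader than other H3K4me3 peaks. Their median width was 800 bp (95% interval of the median 750 to 850), with quartiles of 450 and 1300 bp. For peaks with neither SOX13 nor H3K27me3 the median was 750 bp, with quartiles of 400 and 1150 bp. The difference was clearer among the broadest: 96 hosts (6.35%) exceeded 2000 bp, against 473 of the others (3.04%), a difference of 3.30 percentage points (2.09 to 4.68). A broader peak has more room to overlap SOX13. Per Mb of H3K4me3 peak, the number of peaks holding SOX13 was 66.5 in the broadest width decile (1600 bp and over) and 268 in the narrowest (up to 300 bp). That length leaves out the width of the SOX13 peak, which raises the value most for narrow peaks. In the narrowest decile the median SOX13 peak was 350 bp wide and the median host 250 bp. The share of peaks that held SOX13 had 2 maxima along width, at 12.1% (10 to 14.5%) for 450 bp and 13.5% (11.8 to 15.2%) for the broadest decile. Between them it fell to 6.47% (5.35 to 7.74%) at 850 to 950 bp.

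Hosts also ranked higher by H3K4me3 score. Their median percentile within the list was 56.2 (53.5 to 59.7), against 48.7 (47.9 to 49.8) for peaks without SOX13. The distribution was not a simple shift. The share of peaks that held SOX13 was 2.74% (2.06 to 3.56%) in the lowest score decile, 12.3% and 12.6% in deciles 4 and 5, 6.86% (5.70 to 8.18%) in decile 8 and 16.2% (14.5 to 17.9%) in the highest. The intervals of decile 5 (10.9 to 14.4%) and of decile 8 did not overlap. SOX13 was thus held most often by H3K4me3 peaks of middle and of highest score.

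Separating the list at its median width of 800 bp took the dip away. Among peaks up to 800 bp wide, the share with SOX13 was 2.28% in the lowest score decile of that part of the list, 13.0% in decile 7 and 14.4% (12.1 to 17.1%) in decile 9. Among peaks over 800 bp, it was 5.78% in the lowest decile, 8.80% in decile 7 and 20.3% (17.7 to 23.1%) in the highest. In both parts hosts were found mainly at the upper end of that part's scores. Width was not held equal within a part. From the lowest to the highest score decile, median width rose from 200 to 750 bp in the narrower part. In the broader part it rose from 950 to 1900 bp. The median host was at percentile 65.8 within the narrower part and 72.1 within the broader part.

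**Figure D2:**
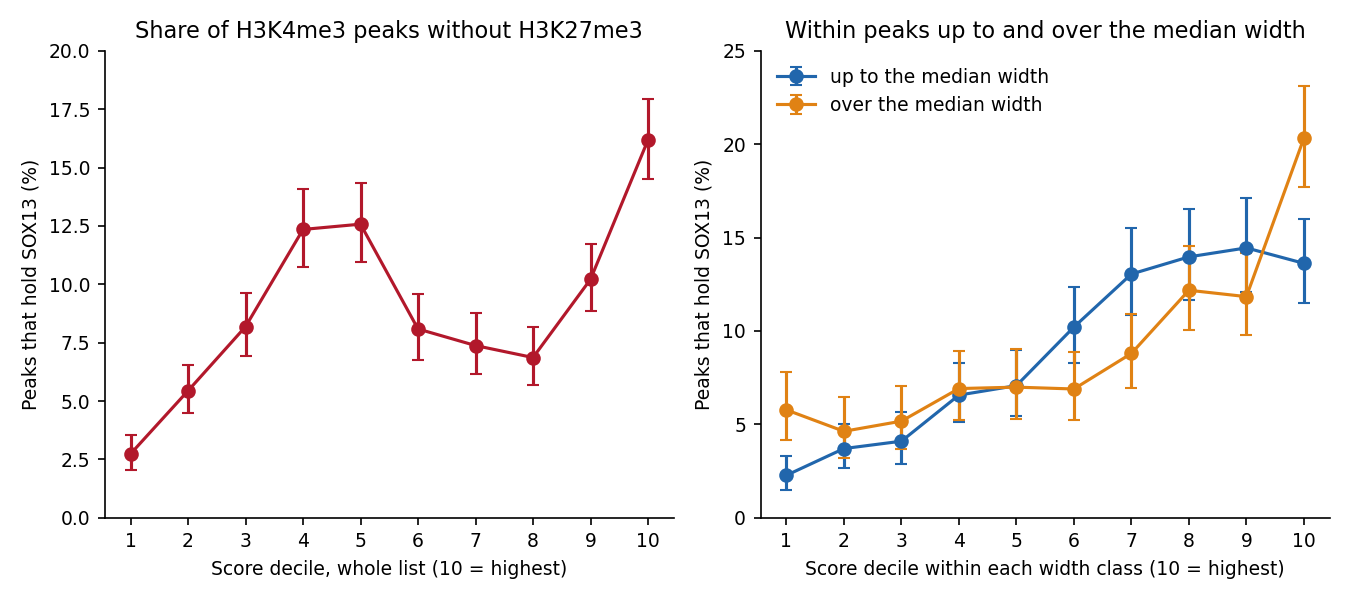
Share of Sox13hi H3K4me3 peaks without H3K27me3 that hold a SOX13 peak, by score decile, with 95% exact binomial intervals. Left, the whole list, with maxima of 12.6% in decile 5 and 16.2% in the highest decile. Right, peaks up to and over the median width of 800 bp, each in deciles of its own scores, where the share is 14.4% in decile 9 of the narrow and 20.3% in the highest of the broad part.

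The middle-scoring and the top-scoring hosts differed in build. In score decile 4, hosts were 450 bp wide at the median, against 550 bp for peaks without SOX13 of the same decile. In decile 5 they were 600 bp wide, against 700 bp. The SOX13 peak covered a median of 75% and 62.5% of the host in these deciles and ranked high in its own list, at median percentiles of 90.2 and 92.7. In the highest H3K4me3 decile, hosts and peaks without SOX13 were both 1650 bp wide at the median, the SOX13 peak covered 19.4% of the host, and its median percentile was 77.4. Over all 1602 pairs, the SOX13 and host scores had a Spearman correlation of -0.0856, a description across peaks of 2 libraries from the same sorted cells.

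**Figure D3:**
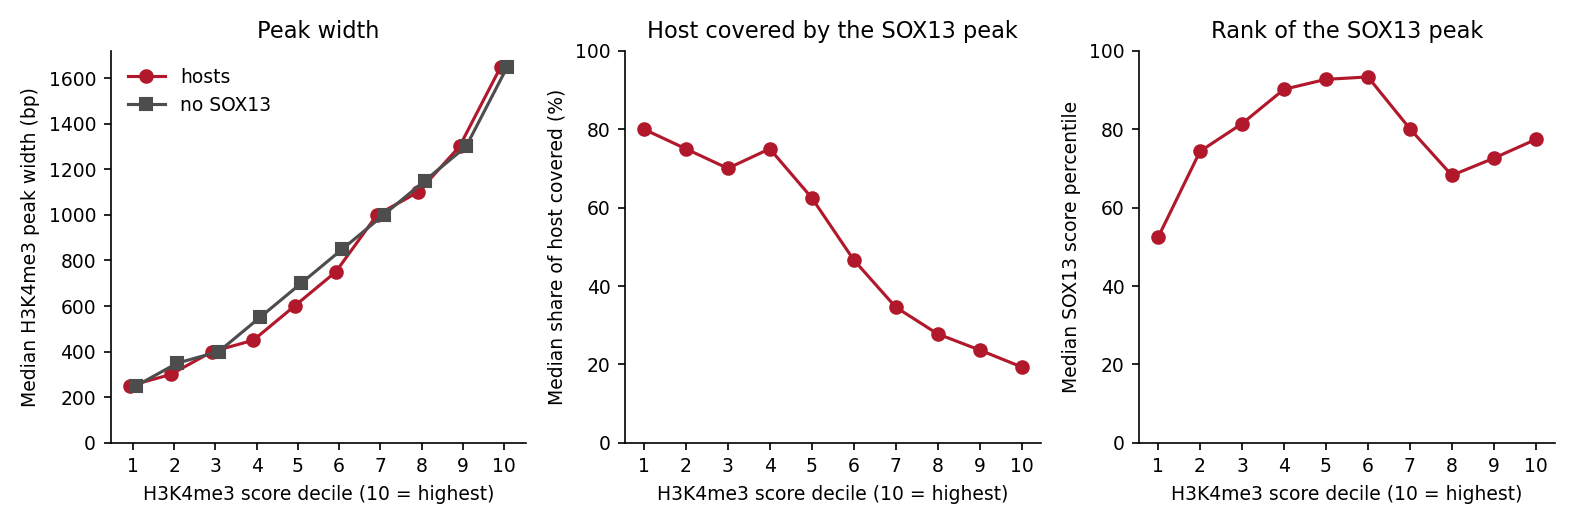
Medians by Sox13hi H3K4me3 score decile (10 is the highest). Left, width in bp of hosts and of H3K4me3 peaks with neither SOX13 nor H3K27me3; centre, percentage of the host covered by the SOX13 peak; right, percentile of the SOX13 peak within its own list. Hosts of deciles 4 to 6 are narrower than the other peaks, and their SOX13 peaks have the highest median percentiles, 90.2 to 93.3.

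Over much of the score range below the top, hosts had fewer H3K4me3 neighbours. In decile 3, 7.46% of hosts had another Sox13hi H3K4me3 peak within 2 kb, against 21.2% of peaks without SOX13, a difference of -13.7 points (-18.1 to -7.56). In decile 4, 15 of 194 hosts (7.73%) had such a neighbour, against 20.8% of the others, a difference of -13.0 points (-17.1 to -7.88). In decile 5 the shares were 10.6% and 20.7%, a difference of -10.1 points (-14.7 to -4.33). The intervals also excluded 0 in deciles 2 (-8.26 points) and 7 (-6.68 points), but not in decile 6, where the shares were 13.8% and 14.5% (difference -0.700, -6.59 to 6.90). They included 0 as well in deciles 1, 8, 9 and 10, and in decile 10 the shares were 12.4% and 9.30% (-0.761 to 7.58).

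Members ranked high among SOX13 peaks. Their median width was 300 bp and their median percentile by SOX13 score 80.1 (78.7 to 82.5), against 250 bp and 44.1 for SOX13 peaks on neither mark. Of the members, 536 (33.5%) were in the top 10% of the SOX13 list, against 741 SOX13 peaks on neither mark (6.46%), a difference of 27.1 points (24.7 to 29.5). SOX13 peaks on both marks were nearer to the members, with 68 of 268 (25.4%) in the top 10% and a difference of 8.17 points (2.06 to 13.8). Hosts of the members in the top 10% had a median width of 550 bp, against 1000 bp for the other hosts, and median H3K4me3 percentiles of 47.7 and 67.2.

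The 10 members with the highest SOX13 score lay on 9 hosts, all in the top 5% of the Sox13hi H3K4me3 list. The highest was on chromosome 6, 29698001 to 29699199 (SOX13 score 470.75, rank 5 of the list). Its host, 29697401 to 29699049, was 1650 bp wide and ranked 2 by H3K4me3 score. The Sox13lo peak with the longest overlap was 500 bp wide and ranked 5885. Ranks are within lists of 19924 Sox13hi and 17954 Sox13lo peaks and are given side by side, since ranks in lists of different length show no change.

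Among the 10, 3 members formed a group on chromosome 17, between 13743401 and 13746049, with SOX13 scores of 261, 429 and 163.5. The first 2 shared the host 13743301 to 13745249, which had the highest H3K4me3 score of Sox13hi (1464) and was 1950 bp wide. The Sox13lo peak with the longest overlap, 13744451 to 13744649, was 200 bp wide and ranked 6933. Whether other Sox13lo peaks lay on this host was not examined. The remaining one had its own host, 13745551 to 13746049 (score 268.25, rank 117), with no Sox13lo peak. Another of the 10, 13498601 to 13499199 on the same chromosome (SOX13 score 320.25), had a host of 550 bp and a Sox13lo peak of 200 bp. Sox13hi had no H3K27me3 peak on these hosts.

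The remaining 5 were on 5 other chromosomes. On chromosome 4, the member at 20118801 to 20119149 had a host of 450 bp in Sox13hi and a peak of 200 bp in Sox13lo. On chromosome 5, the member at 104759651 to 104761449 was 1800 bp wide, the broadest of all members, and covered its whole host of 1250 bp. The nearest Sox13lo H3K4me3 peak lay 31200 bp from that host. On chromosome 13, the member at 74666851 to 74667499 had a host of 1300 bp and a Sox13lo peak of 400 bp. The hosts on chromosome 1 (197067551 to 197068399) and chromosome 19 (61275251 to 61276099) were 850 bp wide in both populations, ranked 3 in Sox13hi with a score of 556 each, and ranked 1 and 2 in Sox13lo. Of the 9 hosts, 7 had a Sox13lo match. Set against the match with the longest overlap, 5 of those were wider in Sox13hi and 2 the same. An input library is listed in the labels and was not used here, so the signal at these sites without an antibody was not examined.

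The Sox13lo lists took no part in choosing the members. Of the 1513 hosts, 1098 (72.6%, 70.2 to 74.8%) overlapped a Sox13lo H3K4me3 peak, against 10381 of 15547 peaks without SOX13 (66.8%, 66.0 to 67.5%) and 67.3% of all H3K4me3 peaks without H3K27me3. The difference was 5.80 points (3.36 to 8.16). Counted by SOX13 peak, 1154 members (72.2%, 69.9 to 74.4%) overlapped a Sox13lo H3K4me3 peak. The share was 86.2% (231 of 268) for SOX13 peaks on both marks, 2.37% for those on neither and 12.5% for all SOX13 peaks. The rule places members on Sox13hi H3K4me3, most of which was also called in Sox13lo. Their distance from the shares for neither mark and for all SOX13 peaks is therefore not read as a result. The Sox13lo peak reached the SOX13 peak itself in most pairs with a matched host, and missed it in 31 of 1183 (2.62%).

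At equal H3K4me3 score the order turned. With peaks lacking SOX13 weighted to the hosts' score deciles, 77.9% of them were matched, and the difference was -5.31 points (-7.68 to -3.03). It came from the middle of the list. In decile 4, 42.8% of hosts (35.7 to 50.1%) and 60.3% of the others were matched, in decile 5, 68.6% (61.5 to 75.2%) and 89.8%, and in decile 6, 89.4% (82.6 to 94.3%) and 98.5%. These 3 deciles were joined after the values were seen. Together, 322 of 505 hosts (63.8%) and 82.9% of the others had a match, a difference of -19.1 points (-23.6 to -14.7). In the lowest decile the order was the other way, with 18.5% and 4.95%. From decile 7 up, at least 99.1% of hosts and 99.5% of the others were matched in each decile.

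The width of the hosts entered this comparison. Weighted by width decile in place of score, 70.7% of peaks without SOX13 were matched and the difference was 1.82 points, with an interval that included 0 (-0.544 to 4.10). Weighted by score and width together it was -0.503 points (-2.95 to 1.86). The pooled value by width joined differences of opposite sign. Hosts were matched more often up to 300 bp (15.3 points, 9.06 to 22.6) and at 350 to 400 bp (11.4, 4.91 to 18.7). They were matched less often at 500 to 600 bp (-8.10, -16.2 to -0.195). In the other width deciles the interval included 0. Narrow peaks were matched less often in both groups, and hosts of middle score were narrow for their score. Counted from the other list, Sox13lo H3K4me3 peaks without Sox13lo H3K27me3 were used. Any SOX13 peak on them counted, not members alone. Of those with SOX13, 80.7% had a match in Sox13hi, against 76.6% of those without, a difference of 4.10 points (1.81 to 6.27). There too the sign turned with the weighting. The difference was -2.28 points (-4.51 to -0.183) by score decile, 5.42 (3.17 to 7.53) by width decile and 1.22 (-1.18 to 3.60) by both together. In score decile 4 of that list the shares were 70.4% and 82.5%. The SOX13 peaks used in both directions were those of Sox13hi.

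**Figure D4:**
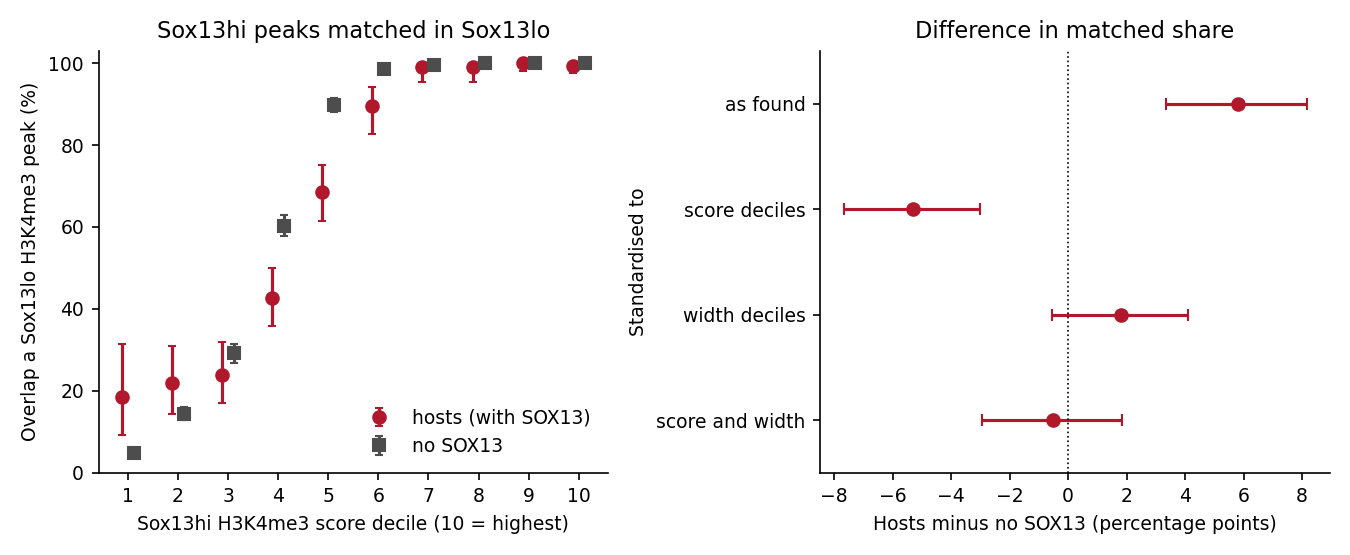
Left, percentage of Sox13hi H3K4me3 peaks that overlap a Sox13lo H3K4me3 peak, by Sox13hi score decile, for hosts and for peaks with neither SOX13 nor H3K27me3, with 95% exact binomial intervals. Right, difference in matched share, hosts minus peaks without SOX13, in percentage points with its interval, as found (5.80) and standardised to score deciles (-5.31), width deciles (1.82) and both (-0.503).

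The 415 hosts with no Sox13lo match had a median width of 400 bp and a median H3K4me3 percentile of 28.5, against 350 bp and 14.6 for unmatched peaks without SOX13. Few were near misses: 22 (5.30%) had a Sox13lo peak within 1 kb and 63 (15.2%, 11.9 to 19%) within 5 kb, against 7.43% and 18.6% of the others. On unmatched hosts the SOX13 peak covered a median of 71.4% of the host, against 30% on matched ones, and the SOX13 percentile was 84.3 against 80.1 (medians, with overlapping intervals of 80.1 to 87.4 and 77.4 to 81.4).

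The 5 highest-scoring hosts without a match were on chromosome 17 (13745551 to 13746049, described above), chromosome 5 (104759851 to 104761099, also described), chromosome 1 (24740751 to 24741299, score 83.75), chromosome 3 (18665601 to 18666249, 62.5) and chromosome 10 (7230051 to 7230749, 49.0). Their SOX13 peaks covered between 54.5% and 100% of the host and had midpoints within 75 bp of the host's midpoint. All 5 SOX13 peaks ranked among the first 230 of the list. The nearest Sox13lo H3K4me3 peak lay 396150 bp from the chromosome 3 host and 100 bp from the chromosome 10 host.

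In matched hosts, the H3K4me3 peak was wider in Sox13hi in 554 of 1098 (50.5%, 47.5 to 53.5%), of equal width in 154 and narrower in 390 (35.5%). Each was compared with the 1 Sox13lo peak of longest overlap, so a host spanning several could count as wider for that reason. Among matched peaks without SOX13, 44.5% were wider in Sox13hi and 40.5% narrower. The share wider in Sox13hi differed by 5.95 points (2.80 to 9.10), not weighted by H3K4me3 score or width. The size was small, with a median difference of 50 bp in hosts, which is 1 step of the grid, and 0 bp in the others. By SOX13 rank, 208 of 366 matched hosts of members in the top 10% (56.8%) were wider in Sox13hi, against 346 of 732 other matched hosts (47.3%), a difference of 9.56 points (3.15 to 15.9). Counted by matched pair, with hosts holding H3K27me3 elsewhere included, the share did not climb steadily with SOX13 score. It was 53.7% (37.4 to 69.3%) and 57.1% (41.0 to 72.3%) in the 2 lowest SOX13 deciles, 42.6% (34.2 to 51.4%) in decile 7 and 58.1% (52.8 to 63.2%) in the highest, and the median width difference was 50 bp in each of these except decile 7, where it was 0 bp. For the first 50 members by SOX13 score, 26 of 41 matched pairs (63.4%, 46.9 to 77.9%) were wider in Sox13hi, with median host widths of 850 bp in Sox13hi and 700 bp in Sox13lo. H3K4me3 and SOX13 were called in the same Sox13hi cells, and a difference in depth between the H3K4me3 libraries was not examined.

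In Sox13lo, H3K27me3 was about as frequent on hosts as on H3K4me3 peaks without SOX13. The Sox13lo H3K27me3 list held 7268 peaks on chromosomes 1 to 19, against 14483 in Sox13hi. A Sox13lo H3K27me3 peak lay on 48 hosts (3.17%, 2.35 to 4.18%) and on 508 peaks without SOX13 (3.27%), a difference of -0.0950 points (-0.969 to 0.953), against 3.26% of all H3K4me3 peaks without H3K27me3. Of the members themselves, 55 (3.44%, 2.60 to 4.46%) overlapped one, against 2.6% of all SOX13 peaks. The latter include peaks on Sox13hi H3K27me3, which the rule bars from the members. Of SOX13 peaks on neither Sox13hi mark, 49 of 11470 (0.427%) overlapped one. The strongest case was the host on chromosome 7, 86937451 to 86938499, with SOX13 at its midpoint and a Sox13lo H3K27me3 peak of score 166.25 (rank 84 of its list). Next were the hosts on chromosome 8 (28195851 to 28196649, H3K27me3 score 115.75), chromosome 7 (117008701 to 117009149, 82.25), chromosome 3 (87801001 to 87801349, 81.25) and chromosome 5 (117863551 to 117864399, 78.5). Apart from the chromosome 3 host, each also kept an H3K4me3 peak in Sox13lo. Their SOX13 peaks were ordinary for the set, with scores between 8.25 and 15.25.

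Hosts with several SOX13 peaks were few. Of the 1557 hosts, 1512 (97.1%) held 1 member and 45 (2.89%, 2.12 to 3.85%) held 2, and 0 held 3 or more. Of all 19924 H3K4me3 peaks, 0.251% held at least 2 SOX13 peaks. Hosts with 2 members were broader, at a median of 1400 bp (1050 to 1600) against 800 bp for hosts with 1, and their median H3K4me3 percentile was 80.4 (66.2 to 93.6) against 56.4. In 18 of the 45 the host was in the highest score decile, and 7 were wider than 2 kb. A broader peak has more room for 2 separate SOX13 peaks.

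The paired SOX13 peaks could lie no further apart than their host allowed. Their midpoints were a median of 625 bp apart, from 350 to 2125 bp, and the stretch between the peaks had a median of 200 bp and was under 500 bp in 38 of 45 hosts. In 41 of 45 hosts (91.1%, 78.8 to 97.5%) the 2 midpoints lay on opposite sides of the host's midpoint. That both peaks must touch 1 host and stay separate limits their spacing and favours opposite sides. No expected share was computed, so no preferred arrangement is read from these values. A Sox13lo match was found for 41 of 45 hosts, against 72.8% of hosts with 1 member. Among hosts over 1000 bp wide, all 30 with 2 members and 588 of 590 with 1 were matched.

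**Figure D5:**
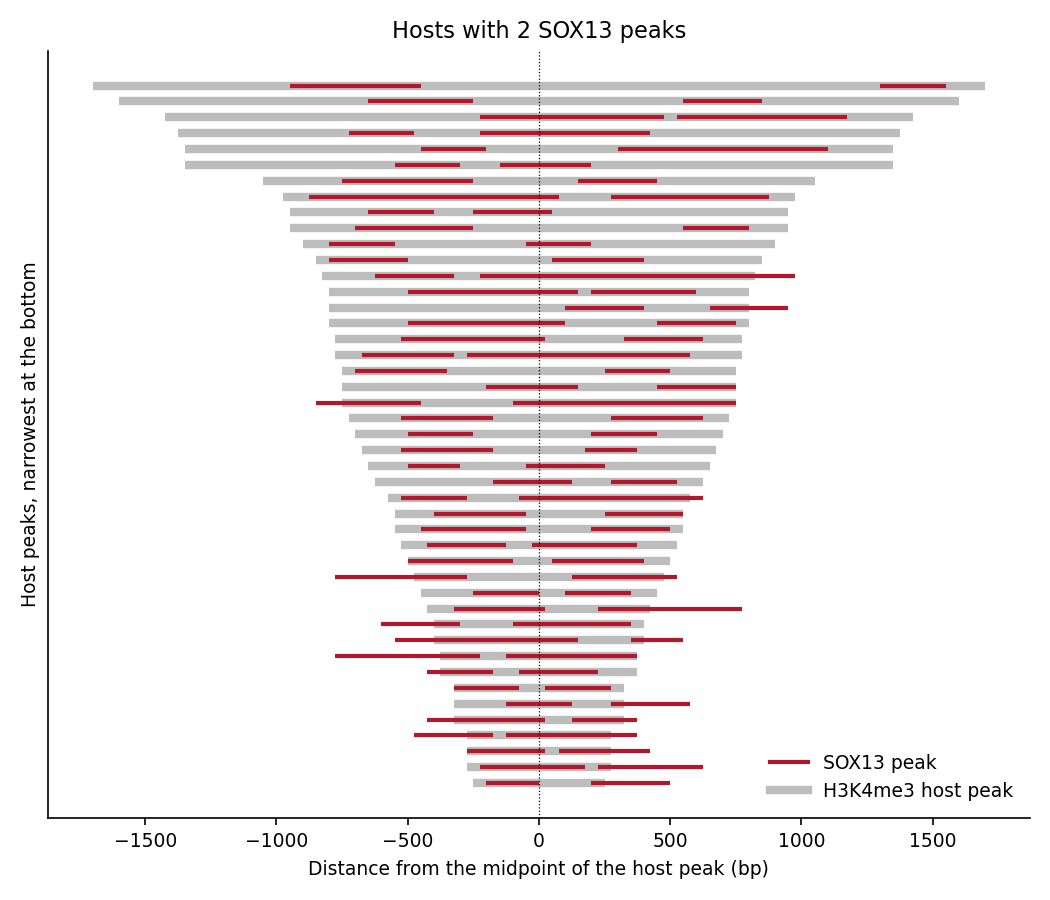
The 45 hosts with 2 SOX13 peaks, each a grey bar centred on the midpoint of the H3K4me3 peak, with its SOX13 peaks in red, to scale in bp and ordered by host width. In 41 of the 45 the SOX13 midpoints are on opposite sides of the dotted centre line, and in the narrower hosts a SOX13 peak often runs past the host's edge. Both peaks must touch the host and be separate, which favours opposite sides.

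The 5 highest-scoring hosts with 2 members began with the chromosome 17 and chromosome 6 sites named above. On chromosome 6, the second SOX13 peak of the host had a score of 31.25 against 470.75 for the first. The others were broad in both populations. On chromosome 6, 119428801 to 119431499, the host was 2700 bp wide in Sox13hi and 2750 bp in Sox13lo, and its SOX13 scores were 25.25 and 7.75. On chromosome 1, 88423201 to 88425949, the host was 2750 bp wide against 2650 bp, with scores of 17.5 and 7.75. On chromosome 17, 84584801 to 84588199, the host was 3400 bp wide against 4000 bp, with scores of 15.0 and 7.25.

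Among the 5 broadest hosts, the first was on chromosome 11, 3188751 to 3193899, 5150 bp wide in Sox13hi and 4950 bp in Sox13lo, with the SOX13 midpoint 650 bp from the host's. Next were chromosome 10, 79610551 to 79615549 (5000 bp and 5500 bp, SOX13 at 2150 bp from the midpoint, near 1 end), and chromosome 2, 31935651 to 31940449 (4800 bp in both, SOX13 at 550 bp). They were followed by chromosome 7, 90014101 to 90018599 (4500 bp and 2200 bp, SOX13 at 1675 bp), and chromosome 5, 3340951 to 3344949 (4000 bp and 3950 bp, SOX13 at 925 bp). The SOX13 scores of these 5 lay between 8 and 18.25, at ranks from 682 to 5702 of the list, and each covered at most 14.4% of its host. All 5 hosts had an H3K4me3 rank of 32 or better in Sox13hi. The Sox13lo widths are those of the peak with the longest overlap.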

How the data were processed

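The data are 5 deposited ChIP-seq peak lists, 1 per library, from sorted mouse γδ thymocytes. Each peak has a position and the authors' score, which moves in steps of about 0.25 and is not defined by the labels. Per the submitters' processing notes, coordinates are on mm9. No aligner, caller, threshold or control is named in the labels. Scores ranked peaks within a list and were not compared between lists. Fixation was with 1% formaldehyde, with 17 cycles of amplification and fragments of 300 to 500 bp, per the labels' protocols. Read depth behind each list is unknown, and a difference in depth or threshold between lists changes which peaks are called. Peaks start on a 50 bp grid and end 1 bp short of it, so widths include the last base. Printed starts are 1-based, and ends are those of the lists.

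All lists were limited to chromosomes 1 to 19 and compared by overlap of at least 1 bp. Where a peak had several matches, the longest overlap was used. Shares carry 95% Clopper-Pearson intervals, medians exact order-statistic intervals, and differences a Newcombe-type interval, also for standardised shares. Deciles are of the H3K4me3 or SOX13 list, with tied scores kept together. The members, regions named and comparisons were chosen with earlier results of these data known. The score ranges, neighbour distances and width comparison by SOX13 rank were chosen after the values were seen. Named regions are the 10 members with the highest SOX13 score and 5 hosts each by number of SOX13 peaks, width, score without a Sox13lo match, and score of a Sox13lo H3K27me3 peak. Sequence and genes were not analysed, since the reference tables are on another build. Code was tested on simulated data, and its overlap counts equalled those of bedtools 2.31.1 for 3 pairs of lists. Python 3.11.15, NumPy 2.4.6, pandas 2.3.3, SciPy 1.17.1 and matplotlib 3.10.9 were used.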

Additional observations from a re-analysis of the deposited data

How the results depend on the processing

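Of 57 values under alternative settings, 43 stayed within the interval or 1.5 times the count reported. Keeping the upper 50% of peaks per list, 730 members remained, with 28 hosts of 2 members, 78.6% of midpoints in the central 50%, a median host width of 1200 bp, a median host percentile of 68.5, 85.6% of hosts matched and a median SOX13 percentile of 66.9. That setting removes low scores by construction and ranks peaks within the cut lists. Requiring 50% of the shorter peak to overlap gave 73.5% of midpoints in the central 50%, and counting a Sox13lo peak within 5 kb as a match gave 76.7% of hosts matched. Percentiles within the narrower and broader parts of the list were 65.8 and 72.1. The difference in matched share, -5.31 points by score deciles, lay between -6.25 and -4.44 with 5 or 20 score strata, equal list length and every other change of list, overlap or match rule. It reversed to 1.82 points with 10 width strata. With score and width strata together it was -0.503, and counted from the Sox13lo list it was -2.28 by score, 5.42 by width and 1.22 by both; these were chosen after seeing the data. Members numbered 1622 with chromosomes X and Y, and double hosts 32 with SOX13 peaks within 100 bp merged. No paired analysis was possible because no group holds more than 1 library, which also leaves no replicate to leave out. Read depth was not known, so an unmatched peak is one not called, not one shown to be absent.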

Other observations

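Members formed few groups along the chromosomes. With members within 10 kb joined, 1445 stood alone, 70 groups held 2 and 4 groups held more. The largest was on chromosome 10, where 4 members lay between 7230151 and 7236549 on 4 separate hosts, with SOX13 scores from 21.0 to 29.5 and host ranks between 8093 and 10645. Of those hosts, 2 had a Sox13lo match. The other groups of 3 were on chromosome 5 (25321401 to 25324149) and chromosome 17 (13743401 to 13746049 and 84580551 to 84588049).

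The share of SOX13 peaks that were members ranged from 8.78% (6.54 to 11.5%) on chromosome 14 to 13.7% (11.5 to 16.2%) on chromosome 11. The share of H3K4me3 peaks without H3K27me3 that were hosts ranged from 6.89% on chromosome 14 to 11.8% on chromosome 16.

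Of the SOX13 peaks on neither Sox13hi mark, 272 of 11470 (2.37%, 2.10 to 2.67%) overlapped an H3K4me3 peak of Sox13lo. Their median SOX13 percentile was 83.4, equal to that of the 444 members that overlapped no Sox13lo H3K4me3 peak. The Sox13lo peaks there were narrow, at a median of 350 bp, and of low rank, at a median percentile of 21.8. Only 24 of the 272 (8.82%) were within 1 kb of a Sox13hi H3K4me3 peak.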
